A study of Mus musculus with 12 samples.

Results

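Regions that were lamina-associated in siControl 8-cell embryos and in no other group of this study made up 1030 of the 23849 bins of 100 kb into which chromosomes 1 to 19 were divided, 103 Mb and 4.32% of the genome examined. They were chosen from the lists of lamina-associated domains (LADs) themselves: a bin was a member when it was LAD in the siControl 8-cell list and outside LADs in the siRif1 8-cell, siRif1 4-cell and siControl 4-cell lists. The LAD state of these bins is therefore a description of how they were picked and is not tested. The examined span of each chromosome ran from the first LAD start to the last LAD end of any list, 2384.9 Mb in all. Of the bins that were outside LADs in the other 3 lists, 11.1% were LAD in siControl 8-cell embryos.

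The study mapped LADs by DamID in mouse embryos of the cross (C57BL/6J xCBA) x DBA/2J. It had 4 groups of 3 replicates, which were embryos given an siRNA against Rif1 (siRif1) and collected at the 8-cell stage, embryos given a control siRNA (siControl) and collected at the 8-cell stage, siRif1 embryos at the 4-cell stage and siControl embryos at the 4-cell stage. All embryos received 20 µM of their siRNA as zygotes, 17 to 18 h after hCG, the hormone that triggers ovulation. All were injected again in both blastomeres at 46 to 48 h, with AID-Dam-LaminB1 (20 ng/µL), Tir1 (250 ng/µL) and membrane-eGFP (100 ng/µL), and then kept in 500 µM auxin. Auxin degrades a protein with the AID tag where Tir1 is present, and the fusion could act after auxin was withdrawn, at 66 h for the 8-cell groups and at 54 h for the 4-cell groups. Collection was at 72 to 74 h and at 60 to 62 h. A replicate was a pool of 16 to 24 blastomeres, from 2 to 3 embryos of 8 cells or 4 to 6 embryos of 4 cells, without polar bodies. A single LAD list was made from the 3 replicates of a group, so no replicate error can be given and no p-value is attached to any difference between lists. The lists hold no read depth and no RNA level, so counting error is unknown and the knockdown of Rif1 was not checked here.

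The nuclear lamina is a meshwork of lamin proteins under the inner nuclear membrane, and LADs are the long, mostly gene-poor and repressed stretches of chromatin that lie against it. In DamID the bacterial adenine methyltransferase Dam, fused to LaminB1, methylates GATC sites of DNA that comes near the lamina, and the methylated fragments are amplified and sequenced. Rif1 is a chromatin protein that acts in the timing of DNA replication, and in mammalian cells late-replicating chromatin and LADs overlap widely. LADs are set up anew after fertilization in mouse embryos.

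Sequences from 2 of the loci are shown first, because they hold related copies that lie side by side, all of which (chromosome 12) or some of which (chromosome 7) were members. The first set is the mature microRNAs of the Dlk1-Rtl1 domain of chromosome 12, an imprinted locus whose maternally expressed non-coding transcripts carry a large microRNA cluster. All 60 microRNA genes of this locus were members, and they supplied 80% of the 75 member microRNA genes. The sequences come from RefSeq (GRCm38.p6), and capitals mark the seed, bases 2 to 8 of the mature microRNA, by which a microRNA pairs with its targets. The 111 mature names of the locus in the RefSeq table had 102 different seeds, and 9 seeds were shared by a pair of names. Shown are 4 of those pairs, each pair on neighbouring lines, followed by miR-127-3p, whose gene lies antisense within Rtl1, and miR-134-5p, known from studies of dendritic spines in neurons.
mmu-miR-379-5p: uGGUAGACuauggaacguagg
mmu-miR-1193-5p: uGGUAGACcggugacguaca
mmu-miR-379-3p: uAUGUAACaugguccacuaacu
mmu-miR-411-3p: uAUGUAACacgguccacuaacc
mmu-miR-376c-5p: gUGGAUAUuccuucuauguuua
mmu-miR-376b-5p: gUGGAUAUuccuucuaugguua
mmu-miR-494-5p: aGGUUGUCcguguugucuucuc
mmu-miR-410-5p: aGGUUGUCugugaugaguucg
mmu-miR-127-3p: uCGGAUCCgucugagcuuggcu
mmu-miR-134-5p: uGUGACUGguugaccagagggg

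The second set is the 250 bases before the start of 4 Zscan4 genes of chromosome 7. Zscan4 genes encode zinc finger proteins that are expressed in a burst in 2-cell embryos. In these windows capitals mark GATC, the site that Dam methylates, TATAA and CCAAT, on either strand. Zscan4c (chr7:11005495-11005744, plus strand) and Zscan4d (chr7:11166149-11166398, minus strand) were members. Zscan4b (chr7:10905051-10905300, minus strand) was LAD in the siControl 8-cell list and in both 4-cell lists, and Zscan4f (chr7:11397665-11397914, plus strand) was outside LADs in all 4 lists.
Zscan4c: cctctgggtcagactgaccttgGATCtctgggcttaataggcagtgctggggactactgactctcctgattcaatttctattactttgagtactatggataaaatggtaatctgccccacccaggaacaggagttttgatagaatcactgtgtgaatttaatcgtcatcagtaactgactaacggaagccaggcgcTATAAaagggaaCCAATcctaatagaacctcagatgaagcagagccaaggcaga
Zscan4d: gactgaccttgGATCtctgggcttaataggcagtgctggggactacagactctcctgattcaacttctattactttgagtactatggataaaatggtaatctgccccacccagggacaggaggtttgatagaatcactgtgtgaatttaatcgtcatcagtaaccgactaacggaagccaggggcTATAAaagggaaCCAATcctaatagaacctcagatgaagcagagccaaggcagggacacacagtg
Zscan4b: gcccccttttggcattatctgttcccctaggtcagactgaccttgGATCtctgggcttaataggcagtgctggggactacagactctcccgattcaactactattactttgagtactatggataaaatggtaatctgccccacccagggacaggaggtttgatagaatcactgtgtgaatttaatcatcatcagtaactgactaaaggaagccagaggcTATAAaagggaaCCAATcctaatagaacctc
Zscan4f: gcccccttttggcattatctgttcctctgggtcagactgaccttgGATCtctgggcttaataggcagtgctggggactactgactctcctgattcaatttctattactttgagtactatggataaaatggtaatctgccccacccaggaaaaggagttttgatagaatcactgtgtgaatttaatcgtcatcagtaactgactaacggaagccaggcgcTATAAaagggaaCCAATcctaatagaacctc
Each of the 4 windows held 1 GATC, 1 TATAA and 1 CCAAT. Once aligned, the member windows of Zscan4c and Zscan4d were identical at 233 of 239 bases (97.5%), Zscan4c and Zscan4f at 226 of 227 (99.6%) and Zscan4c and Zscan4b at 217 of 227 (95.6%). The 4 copies thus showed 3 LAD states, with Zscan4c and Zscan4d alike, while at least 94.8% of the aligned bases were identical in every pair of windows. Reads from such copies can map to more than 1 place, and how the authors treated those reads is not given in the sources used here.

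As intervals, the 1030 bins formed 307 stretches with a median length of 200 kb. Single bins made up 117 of them, 143 stretches were at least 300 kb long (819 bins) and 18 were at least 1 Mb long (221 bins). Of the 746 siControl 8-cell LADs, 249 held a member bin, and the members were 9.66% of the 10667 bins of that list. Most members were a section of a LAD that reached further: 186 stretches (462 bins, 44.9%) lay at the end of a longer siControl 8-cell LAD and 58 (338 bins, 32.8%) lay inside one, with siControl 8-cell LAD on both sides. The remaining 63 stretches (230 bins, 22.3%) were whole siControl 8-cell LADs, 63 of that list's 746.

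Seen from the other 3 lists, 79.8% of member bins were in stretches that adjoined a LAD of at least 1 of them. Most of this share is fixed by the rule. A stretch at the end of a longer siControl 8-cell LAD (462 bins) or inside one (338 bins) must adjoin a LAD of another list. A siRif1 8-cell LAD adjoined 149 stretches, a siRif1 4-cell LAD 123 and a siControl 4-cell LAD 75. A member bin lay a median of 300 kb from the nearest siRif1 8-cell LAD, 450 kb from the nearest siRif1 4-cell LAD and 900 kb from the nearest siControl 4-cell LAD. These lists differ in size, with 42.9%, 43.5% and 32.9% of the span in LADs in that order, and bins that were LAD in no list lay a median of 800, 900 and 1100 kb from them. The order of the 3 distances was thus the same in bins LAD in no list, and nothing particular to members is read from it. A LAD of the siRif1 8-cell list adjoined 15.8% of member bins and 6.03% of bins LAD in no list, a siRif1 4-cell LAD 13.5% and 4.77%, and a siControl 4-cell LAD 7.38% and 4.08%. The higher shares in members follow in part from the same rule. Isolated stretches were fewer: 30 stretches (109 bins) were 500 kb or more from every LAD of the other 3 lists, and 13 (53 bins) were 1 Mb or more away. By the rule that chose the members, any stretch with a gap is a whole siControl 8-cell LAD, since a neighbouring siControl 8-cell LAD bin that is no member is LAD in another list. The scatter plot sets stretch length against this gap.

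**Figure D1:**
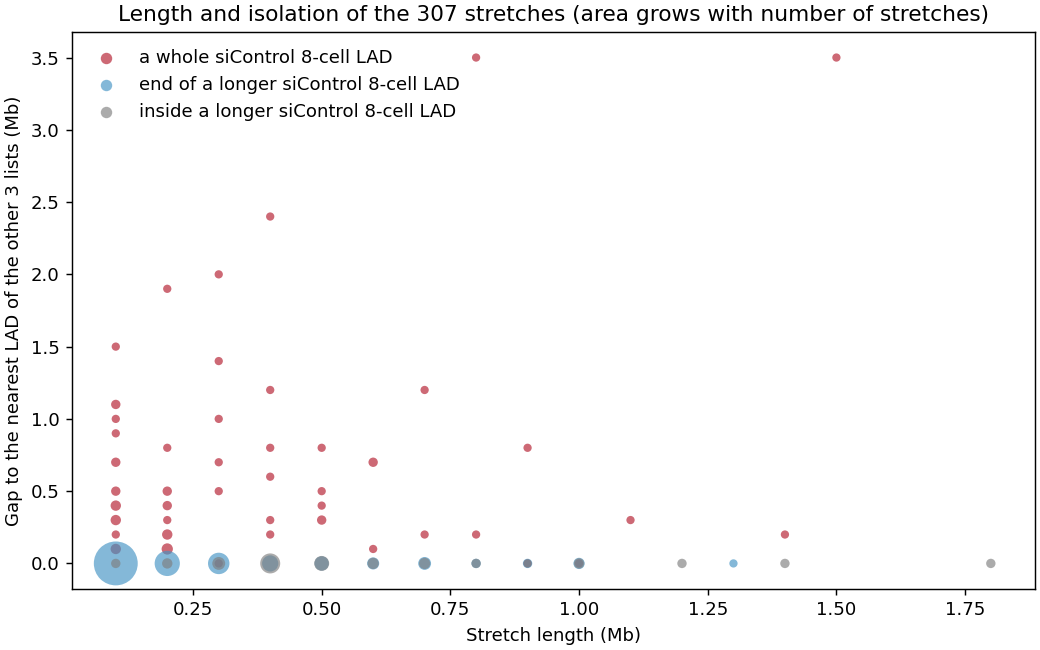
Each point is one or more of the 307 stretches, with length (Mb) on the x axis and the gap to the nearest LAD of the siRif1 8-cell, siRif1 4-cell and siControl 4-cell lists (Mb) on the y axis. Point area grows with the number of stretches at a position and colour gives the place within siControl 8-cell LADs. Most stretches sit at a gap of 0, and 2 stretches, of 1.5 and 0.8 Mb, sit 3.5 Mb from any other LAD.

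Beside the other classes of bins, members were fewer than the 1454 bins that were LAD in the siRif1 8-cell list alone (6.10%) and close in number to the 1147 that were LAD in both 8-cell lists and neither 4-cell list (4.81%). Of the 2177 bins that were LAD in siControl 8-cell embryos and outside both 4-cell lists, 47.3% were outside the siRif1 8-cell list and are the members. In the mirror comparison, 55.9% of the 2601 bins that were LAD in siRif1 8-cell embryos and outside both 4-cell lists were outside the siControl 8-cell list. Of the bins of the siControl 8-cell list, 3162 (29.6%) were outside the siRif1 8-cell list. The members were 32.6% of these, and the other bins were LAD in at least 1 of the 4-cell lists.

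The members were spread unevenly over chromosomes. Their share of the span averaged 4.53% ± 2.50 (SD over 19 chromosomes, which are not replicates). It was highest on chromosome 19 (9.02%, 48 bins), chromosome 7 (8.69%, 121 bins), chromosome 17 (8.32%, 76 bins) and chromosome 4 (7.11%, 109 bins). It was lowest on chromosome 9 (0.494%, 6 bins) and chromosome 1 (1.61%, 31 bins). Chromosomes 4 and 7 together held 22.3% of the members and 12.3% of the span. On chromosome 7 the share in the siRif1 8-cell list alone was 2.23%, below that of the members, and on chromosome 1 it was 8.42%, above it. On chromosome 17 both classes were high (8.32% for members and 8.43% for siRif1 8-cell alone). Along the chromosome, from the centromere side to the far end in 5 equal sections of the span, members were 4.02%, 4.63%, 6.33%, 2.87% and 3.74% of bins, with the highest share in the middle section. The siRif1 8-cell-only bins were 5.11%, 7.7%, 6.94%, 5.83% and 4.91% in the same sections, also lower in the end sections than in the middle one. The share of all siControl 8-cell LAD bins in these sections was 41.4%, 41.2%, 45.9%, 46.4% and 48.8%, highest in the last.

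**Figure D2:**
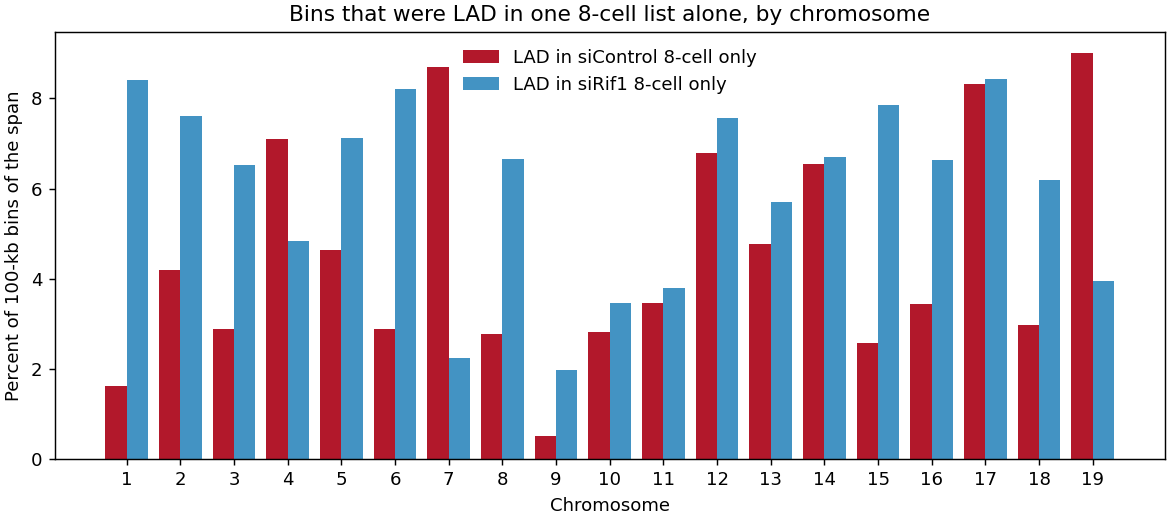
Bars give the percent of each chromosome's 100-kb bins that were LAD in the siControl 8-cell list alone (red) and in the siRif1 8-cell list alone (blue), by chromosome. Red bars range over 0.494 to 9.02%, and red stands above blue on chromosomes 4, 7 and 19, where members were 7.11, 8.69 and 9.02% and siRif1 8-cell alone 4.83, 2.23 and 3.95%.

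A total of 757 protein-coding genes had their midpoint in a member bin, 3.76% of the 20144 in the span. This was 7.35 genes per Mb, against 5.34 in bins LAD in the siRif1 8-cell list alone, 5.04 in bins LAD in both 8-cell lists only, 4.76 in bins LAD in all 4 lists, 14.0 in bins LAD in no list and 8.45 over the span. Members were denser in genes than the bins LAD in both 8-cell lists only on 15 of 19 chromosomes, than the bins LAD in all 4 lists on 15 and than the siRif1 8-cell-only bins on 12. They were denser than the rest of their chromosome on 7 of 19. A protein-coding gene midpoint lay in 39% of member bins, against 26.9% of siRif1 8-cell-only bins, 28.7% of bins LAD in both 8-cell lists only, 32.9% of bins LAD in all 4 lists and 44.2% over the span. Of the 307 stretches, 129 (42%) held none. Olfactory, vomeronasal, keratin, serpin and Pramel genes numbered 263, 34.7% of member genes, against 14.5% in siRif1 8-cell-only bins, 41.3% in bins LAD in both 8-cell lists only and 8.27% over the span. Without these families the density was 4.80 genes per Mb in members, 4.57 in siRif1 8-cell-only bins, 2.96 in bins LAD in both 8-cell lists only and 7.75 over the span. Each family counted had at least 11.1% of its genes in members. Some clustered families with 0 members were left out. Clustered protocadherin, Hox, C-type lectin and killer receptor, and taste receptor genes had 36, 9, 15 and 6 genes in siRif1 8-cell-only bins. The family shares, and the values without families, therefore depend on which families were counted.

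**Figure D3:**
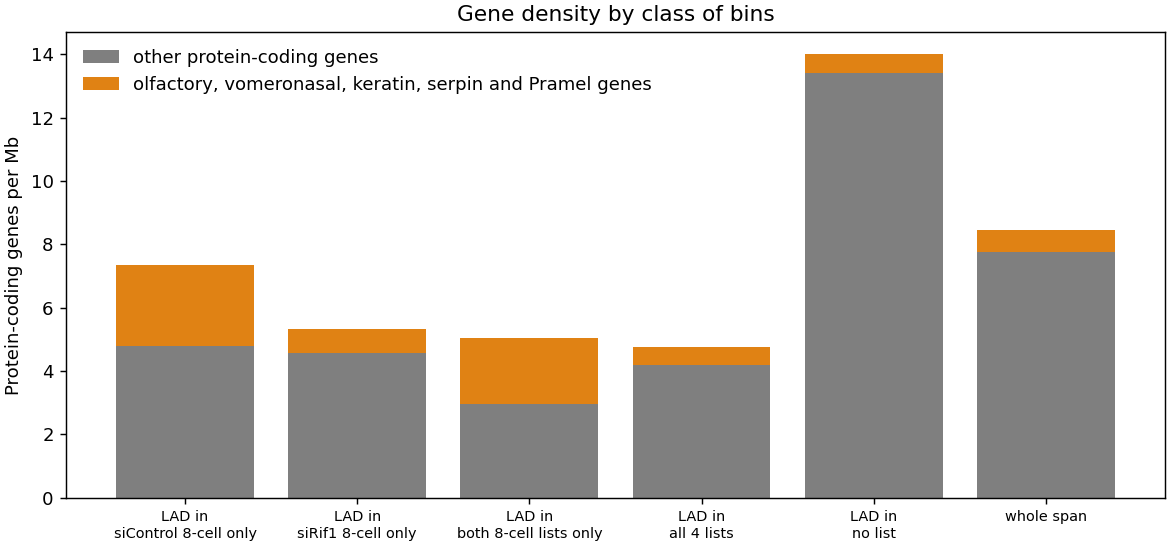
Bars give protein-coding genes per Mb by midpoint in 6 classes of 100-kb bins. They are split into olfactory, vomeronasal, keratin, serpin and Pramel genes (orange) and other genes (grey), which include other clustered families. Members (left) reach 7.35 genes per Mb, of which 4.80 are other genes. The siRif1 8-cell-only bins reach 5.34 and the whole span 8.45.

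Chemosensory receptor genes formed the largest share. Olfactory receptors, odorant receptors of the nose, and the vomeronasal type 1 and type 2 receptors, pheromone receptors of the vomeronasal organ, together gave 203 genes, 26.8% of member genes. They were 13.9% of the genes in siRif1 8-cell-only bins, 40.5% in bins LAD in both 8-cell lists only and 7.19% in the span, so the bins LAD in both 8-cell lists held a larger share than the members. Of 1101 olfactory receptor genes, 128 (11.6%) were members, against 3.76% of all protein-coding genes. They lay in 13 stretches on 7 chromosomes, and 4 stretches held 20, 23, 24 and 15 of them. These were chr10:129300001-129700000, chr16:58800001-59400000, chr2:88000001-88700000, where all 24 genes were olfactory receptors such as Olfr1166 and Olfr1182, and chr7:85700001-87500000. A further 107 olfactory receptor genes (9.72%) were LAD in the siRif1 8-cell list alone and 160 (14.5%) in both 8-cell lists only, so this family was found in all 3 of these classes of 8-cell LAD. For all protein-coding genes the shares in the last 2 classes were 3.86% and 2.87%. Of 228 vomeronasal type 1 genes, 43 (18.9%) were members in 7 stretches, 0 were LAD in the siRif1 8-cell list alone and 46 (20.2%) were LAD in both 8-cell lists only. Of 120 vomeronasal type 2 genes, 32 (26.7%) were members in 7 stretches, 1 was LAD in the siRif1 8-cell list alone and 28 (23.3%) were LAD in both 8-cell lists only. Without chromosome 7, the counts of members were 82 olfactory, 14 type 1 and 10 type 2 receptor genes.

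The longest gene-rich stretch, chr7:85700001-87500000, was 1800 kb long and held 26 protein-coding genes. Among them were 15 olfactory receptor genes, Vmn2r79, Folh1, a peptidase that cleaves folate conjugates, Nox4, an NADPH oxidase, and Tyr, the tyrosinase of melanin synthesis. Each of these 4 named genes was 100% LAD in the siControl 8-cell list and 0% LAD in the other 3. On both sides the stretch continued as LAD in both 8-cell lists, so the siRif1 8-cell LADs stopped at its borders, and the nearest 4-cell LADs lay 700 kb away.

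Keratin genes were a single block. Keratins are the intermediate filament proteins of epithelia, and keratin-associated proteins bind them in hair. Of 109 such genes in the span, 43 (39.4%) were members, all in 1 stretch of 900 kb on chromosome 11 (chr11:99400001-100300000), which held 58 protein-coding genes, including Krt20, Krt23, Krt36 and Krt39. This stretch was a whole siControl 8-cell LAD, 3200 kb from the nearest siRif1 8-cell LAD and 1200 kb from the nearest siRif1 4-cell LAD, and it adjoined a siControl 4-cell LAD. Of the 50 genes of the list in this part of chromosome 11, 43 were LAD in siControl 8-cell embryos and the other 7 in siControl 4-cell embryos. Neither siRif1 list had a LAD over any of the 50. Serpins, mostly inhibitors of serine proteases, were likewise a single block: 12 of 62 (19.4%) were members, all Serpinb genes of a 700-kb stretch (chr13:32800001-33500000). Of the 16 Serpinb genes there, these 12 were LAD in the siControl 8-cell list only, 3 in the siRif1 4-cell list only and 1 in none. For each block, the count of genes stands for 1 region and not for independent genes.

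**Figure D4:**
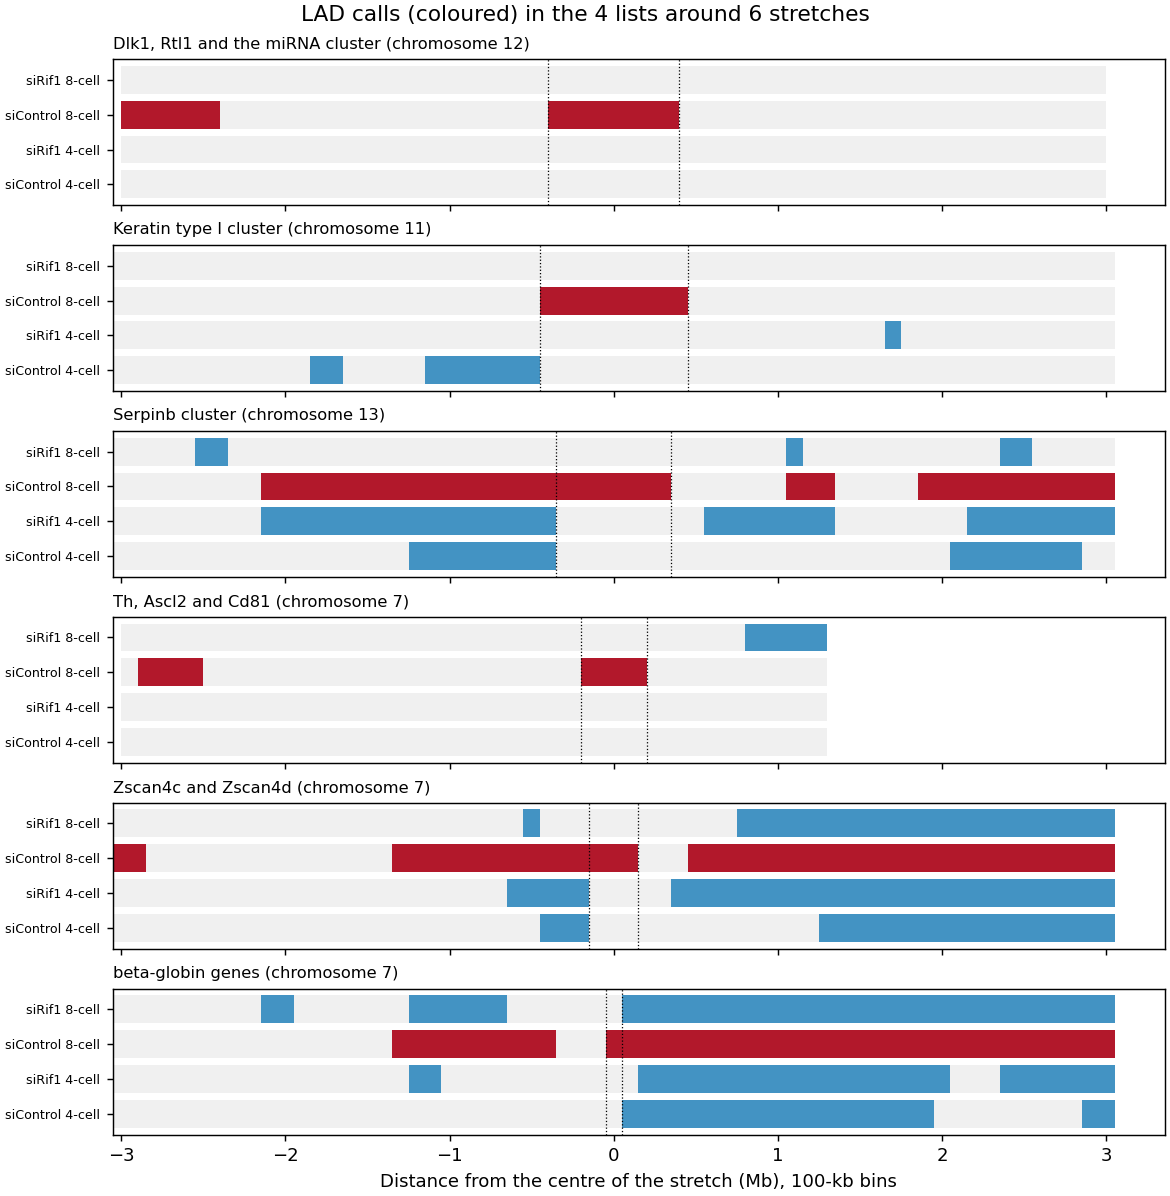
LAD calls in 100-kb bins around 6 stretches, with distance from the centre of the stretch (Mb) on the x axis and a row for each list, siRif1 8-cell at the top, then siControl 8-cell (red), siRif1 4-cell and siControl 4-cell. Grey bins are outside LADs, white is outside the span, and dotted lines bound the stretch. The Dlk1 and Th stretches stand alone, and the keratin, Serpinb, Zscan4 and beta-globin stretches adjoin LADs of other lists.

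Genes of the 2-cell stage, expressed when the zygotic genome is activated, had 5 of 23 members (21.7%, beside 3.76% of all genes). Zscan4c and Zscan4d lay in a 300-kb stretch (chr7:11000001-11300000) at the end of a siControl 8-cell LAD. Both 4-cell lists had a LAD that reached up to its border, and the nearest siRif1 8-cell LAD was 300 kb away. Usp17lc and Usp17ld, which encode deubiquitinating enzymes, lay together in a 300-kb stretch (chr7:103200001-103500000) that adjoined a siRif1 8-cell LAD. Their neighbours Usp17la, Usp17lb and Usp17le were LAD in all 4 lists. Tcstv3, a gene of the 2-cell stage, lay in a single bin at the end of the span of chromosome 13, which adjoined a siRif1 8-cell LAD. In siRif1 8-cell-only bins were 3 genes of this list. Leaving out the bins next to a LAD of another list left 2 of the 5 as members, and leaving out chromosome 7 left 1.

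Imprinted genes, expressed from the allele of 1 parent, had 7 of 40 members (17.5%, beside 3.76% of all protein-coding genes). They lay in 3 stretches on chromosomes 7 and 12, and 2 were left without chromosome 7. The count thus stands for 3 regions and not for 7 independent genes. In 1 of the stretches Dlk1, a Notch-related transmembrane protein, and Rtl1, a retrotransposon-derived gene needed in the placenta, lay in an 800-kb stretch (chr12:109000001-109800000) that was a whole siControl 8-cell LAD. The nearest LADs of the other lists were 3500 kb away in siRif1 8-cell, 6200 kb in siRif1 4-cell and 6300 kb in siControl 4-cell embryos, so this stretch was isolated from all 3. Its only other protein-coding gene was Begain. Its 60 microRNA genes run over chr12:109544541-109747960, and the last one ends 52 kb before the end of the stretch. It also held 19 of the 82 member snoRNA genes (6.47% of the 1268 in the span). Member microRNA genes were 6.80% of the 1103 in the span, and outside this stretch 15 of 1043 (1.44%). The microRNAs whose sequences are printed above all lay within it. The figure of 80% for member microRNAs is therefore the state of 1 region.

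The other isolated imprinted stretch lay near the end of chromosome 7 (chr7:142800001-143200000, 400 kb). It held all 6 protein-coding genes from Th to Trpm5: Th, the tyrosine hydroxylase of catecholamine synthesis, Ascl2, a transcription factor needed in the trophoblast, Tspan32, the tetraspanin gene Cd81, Tssc4 and the ion channel gene Trpm5. It was 600 kb from the nearest siRif1 8-cell LAD, 3900 kb from the nearest siRif1 4-cell LAD and 4800 kb from the nearest siControl 4-cell LAD. The imprinted neighbours were Ins2 and Igf2 on one side and Kcnq1, Cdkn1c, Slc22a18 and Phlda2 on the other. Their midpoints were outside LADs in all 4 lists. A gene placed by its midpoint can still reach into a stretch, and 9 imprinted genes counted as members when any overlap was enough. Ube3a, a ubiquitin ligase gene imprinted in neurons, was the only protein-coding gene of the third stretch (chr7:58900001-59400000). That stretch ended a siControl 8-cell LAD, adjoined a siRif1 4-cell LAD and lay 1100 kb from the nearest siRif1 8-cell LAD. Of the 40 imprinted genes, 2 (5%) were in siRif1 8-cell-only bins and 0 in bins LAD in both 8-cell lists only.

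The beta-globin genes were a locus chosen after its values were seen. All 5, Hbb-bt, Hbb-bs, Hbb-bh2, Hbb-bh1 and Hbb-y, lay in a single member bin (chr7:103800001-103900000), which formed the end of a siControl 8-cell LAD. The adjoining bin of that LAD was LAD in the siRif1 8-cell and siControl 4-cell lists too, and the siRif1 4-cell LAD began 100 kb away. The windows of 3 of these genes are shown because they set a cluster of diverged copies beside the near-identical Zscan4 copies, with the same motifs in capitals. They are Hbb-bt (chr7:103813924-103814173), Hbb-bs (chr7:103827929-103828178) and Hbb-y (chr7:103853208-103853457), all on the minus strand.
Hbb-bt: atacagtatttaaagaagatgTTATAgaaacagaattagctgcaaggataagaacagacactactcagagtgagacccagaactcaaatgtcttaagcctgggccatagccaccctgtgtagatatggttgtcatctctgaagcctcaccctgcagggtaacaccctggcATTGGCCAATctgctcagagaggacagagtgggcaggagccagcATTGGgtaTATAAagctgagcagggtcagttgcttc
Hbb-bs: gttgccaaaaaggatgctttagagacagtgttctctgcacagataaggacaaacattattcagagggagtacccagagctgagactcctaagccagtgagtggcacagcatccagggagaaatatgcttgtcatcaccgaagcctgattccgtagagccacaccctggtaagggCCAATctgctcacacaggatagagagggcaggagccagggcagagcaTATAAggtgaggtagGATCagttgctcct
Hbb-y: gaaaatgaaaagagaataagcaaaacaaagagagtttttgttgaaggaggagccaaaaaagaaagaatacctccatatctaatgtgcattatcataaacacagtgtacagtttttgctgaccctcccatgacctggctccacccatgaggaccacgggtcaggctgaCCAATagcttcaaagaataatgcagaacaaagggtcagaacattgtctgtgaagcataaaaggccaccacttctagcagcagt
Identity between these windows was 74.1% for Hbb-bt and Hbb-bs, 63.7% for Hbb-bs and Hbb-y and 60.8% for Hbb-bt and Hbb-y. A GATC was present in the Hbb-bs window only, and CCAAT was present in all 3, against 35.2% of the 19663 windows of genes in the span.

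Over the 635 member genes that have a promoter window in the RefSeq table (729 windows), the 250 bases upstream had a GC content of 48.2% ± 13.1 (SD over genes), against 51.6% ± 13.1 in siRif1 8-cell-only bins, 42.5% ± 12.6 in bins LAD in both 8-cell lists only and 55.3% ± 11.8 over the 16123 genes of the span. Without the olfactory, vomeronasal, keratin, serpin and Pramel genes it was 54.4% in members, 54.9% in siRif1 8-cell-only bins, 49.8% in bins LAD in both 8-cell lists only and 57.1% over the span. The gap between members and the span was thus smaller without these genes. GATC was present in 42.5% of member windows and in 40.3% of all windows. TATAA, on either strand, was present in 32.9% of member windows, 26.4% of siRif1 8-cell-only windows, 40.9% of windows of genes in bins LAD in both 8-cell lists only and 20.5% of all windows. CCAAT was present in 40.7% of member windows, 34.1% of siRif1 8-cell-only windows, 35.9% of windows in bins LAD in both 8-cell lists only and 35.2% of all windows. A match is only a run of letters and not a shown binding site.

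Entries that do not code for protein were not spread alike. Pseudogenes numbered 498 in members (5.75% of 8661), 4.83 per Mb, against 3.18 per Mb in bins LAD in the siRif1 8-cell list alone, 4.64 in bins LAD in both 8-cell lists only, 4.04 in bins LAD in no list and 3.63 over the span. Long non-coding RNA genes numbered 419 (3.43% of 12200), 4.07 per Mb, against 3.26 per Mb in siRif1 8-cell-only bins, 2.44 in bins LAD in both 8-cell lists only and 5.12 over the span. Of 383 tRNA genes, 34 (8.88%) were members, beside 4.32% of all bins. The number of stretches that held them is not given here, so they may stand for few regions. Among the gene segments that are joined to make antigen receptors, 25 of 374 variable segments (6.68%), 10 of 14 diversity segments (71.4%) and 4 of 82 joining segments (4.88%) were members. All 10 diversity segments and the 4 joining segments belong to the immunoglobulin heavy chain locus of chromosome 12 and lay in a 200-kb stretch (chr12:113400001-113600000), a locus chosen after its values were seen. That stretch adjoined a siRif1 8-cell LAD and lay 2400 kb from the nearest siRif1 4-cell LAD and 2500 kb from the nearest siControl 4-cell LAD. Of the 120 variable segments beside it, 17 were members.

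Of the 11 genes of at least 500 kb with their midpoint in a member bin, none was a member from end to end. The share of the gene's length in member bins ranged over 26.4% to 92.9%. A gene this long fits only in a stretch of its own length or more, and the median stretch was 200 kb. Ptprd, a receptor tyrosine phosphatase of neurons, was the only protein-coding gene of the longest stretch on chromosome 4 (chr4:75700001-77500000, 1800 kb). It was 8.81% LAD in the siRif1 8-cell list, 81.9% in the siControl 8-cell list and 0% in both 4-cell lists, with 73.1% of its length in member bins. Fgf12, a fibroblast growth factor homologue that binds sodium channels, was 0% LAD in siRif1 8-cell, 100% in siControl 8-cell, 7.09% in siRif1 4-cell and 0% in siControl 4-cell embryos. Astn2, which acts in neuronal migration, was 0%, 100%, 11.6% and 11.6% LAD in the same order of lists.

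Others of these genes were divided between classes. Dgkb, a diacylglycerol kinase gene, was 44.3% LAD in the siRif1 8-cell list and 100% in the siControl 8-cell list, with 0% in both 4-cell lists. Ppargc1a, a coactivator of mitochondrial genes, was 22% LAD in the siRif1 8-cell list and 100% in the siControl 8-cell list, also with 0% at the 4-cell stage. Tenm3, a teneurin of synaptic wiring, was 0% LAD in siRif1 8-cell embryos, 90.5% in siControl 8-cell, 48% in siRif1 4-cell and 0% in siControl 4-cell embryos. Alk, a receptor tyrosine kinase gene, and Csmd3 were 55% and 26.4% LAD in the siControl 8-cell list, and both were 0% LAD in both 4-cell lists. The list of long neuronal and adhesion genes had 5 of 40 members (12.5%, beside 3.76% of all protein-coding genes), Ptprd, Cntn4, Tenm3, Cdh9 and Csmd3. In siRif1 8-cell-only bins were 6 (15%, beside 3.86%). Its count was 3 when LADs or stretches under 300 kb were left out, and 8 when any overlap of the gene counted in place of its midpoint.

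The stretch chr11:55600001-57100000 (1500 kb) held Nmur2, a neuromedin U receptor, as its only protein-coding gene. Together with the Dlk1 stretch, it had the largest gap to the nearest LAD of any other list, 3500 kb. It was 5900 kb from the nearest siRif1 8-cell LAD, 3500 kb from the nearest siRif1 4-cell LAD and 5700 kb from the nearest siControl 4-cell LAD. The other long stretches named here held 1 to 9 protein-coding genes each. Epha5, an ephrin receptor, and Tecrl lay in chr5:83100001-84500000, a whole siControl 8-cell LAD. Fbxl4 and the neural transcription factor Pou3f2 lay in chr4:22300001-23500000 and Brinp1 in chr4:68500001-69700000, both bounded on the 2 sides by LADs of both 8-cell lists. Anxa1 and Aldh1a1, a retinaldehyde dehydrogenase, lay in chr19:19200001-20600000, where siRif1 4-cell LADs adjoined on both sides. Aldh1a1 was 28.8% LAD in the siRif1 4-cell list, so its end ran past the stretch. Rhag, Crisp2, Mmut, the mitochondrial methylmalonyl-CoA mutase, and Glyatl3 lay in chr17:40600001-42000000, and Lbh, Lclat1 and Capn13 lay with Alk in chr17:72200001-73500000.

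For lists of genes that most cells use, the shares stand beside the 3.76% of all genes, and a count of 1 is near that background. Ribosomal proteins had 1 of 77 (1.30%, Rpl10l), proteasome genes 1 of 37 (2.70%, Psmd14, a deubiquitinating subunit of the lid), replication factors 1 of 29 (3.45%, Gins1, a subunit of the replicative helicase) and complex I and histone genes 0 of 35 and 0 of 69. Among nuclear envelope genes, Sun1, which links the lamina to the cytoskeleton, was the only member of 14 (7.14%). It lay in a freestanding single bin (chr5:139200001-139300000), 1100 kb from the nearest siRif1 8-cell LAD, 1700 kb from the nearest siRif1 4-cell LAD and 1800 kb from the nearest siControl 4-cell LAD.

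Early lineage lists contributed 1 gene. Ascl2 was the member of the 16 trophectoderm genes, and 0 of 20 pluripotency, 0 of 11 primitive endoderm and 0 of 28 germ layer and neural genes were members. Members held 3.76% of all protein-coding genes, and counts of 0 or 1 in lists this short are near that share. Of the clustered families, 0 of 57 clustered protocadherin genes, 0 of 39 Hox genes, 0 of 60 genes for C-type lectins and killer receptors and 0 of 38 taste receptor genes were members, while 36 (63.2%), 9 (23.1%), 15 (25%) and 6 (15.8%) in that order were LAD in the siRif1 8-cell list alone. Of all protein-coding genes, 3.86% were in siRif1 8-cell-only bins and 2.87% in bins LAD in both 8-cell lists only. Genes of a cluster lie side by side, so these counts do not stand for independent genes. Cytochrome P450 genes had 0 of 99 members, with 12 (12.1%) LAD in both 8-cell lists only, and beta defensins had 2 of 42 (4.76%) with 10 (23.8%). Zinc finger Zfp genes had 26 of 377 (6.90%) in 12 stretches, against 10 (2.65%) in siRif1 8-cell-only bins, and forkhead genes 0 of 41. In all, 16 of the 27 gene lists had a member. The plot of gene lists sets these shares side by side.

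**Figure D5:**
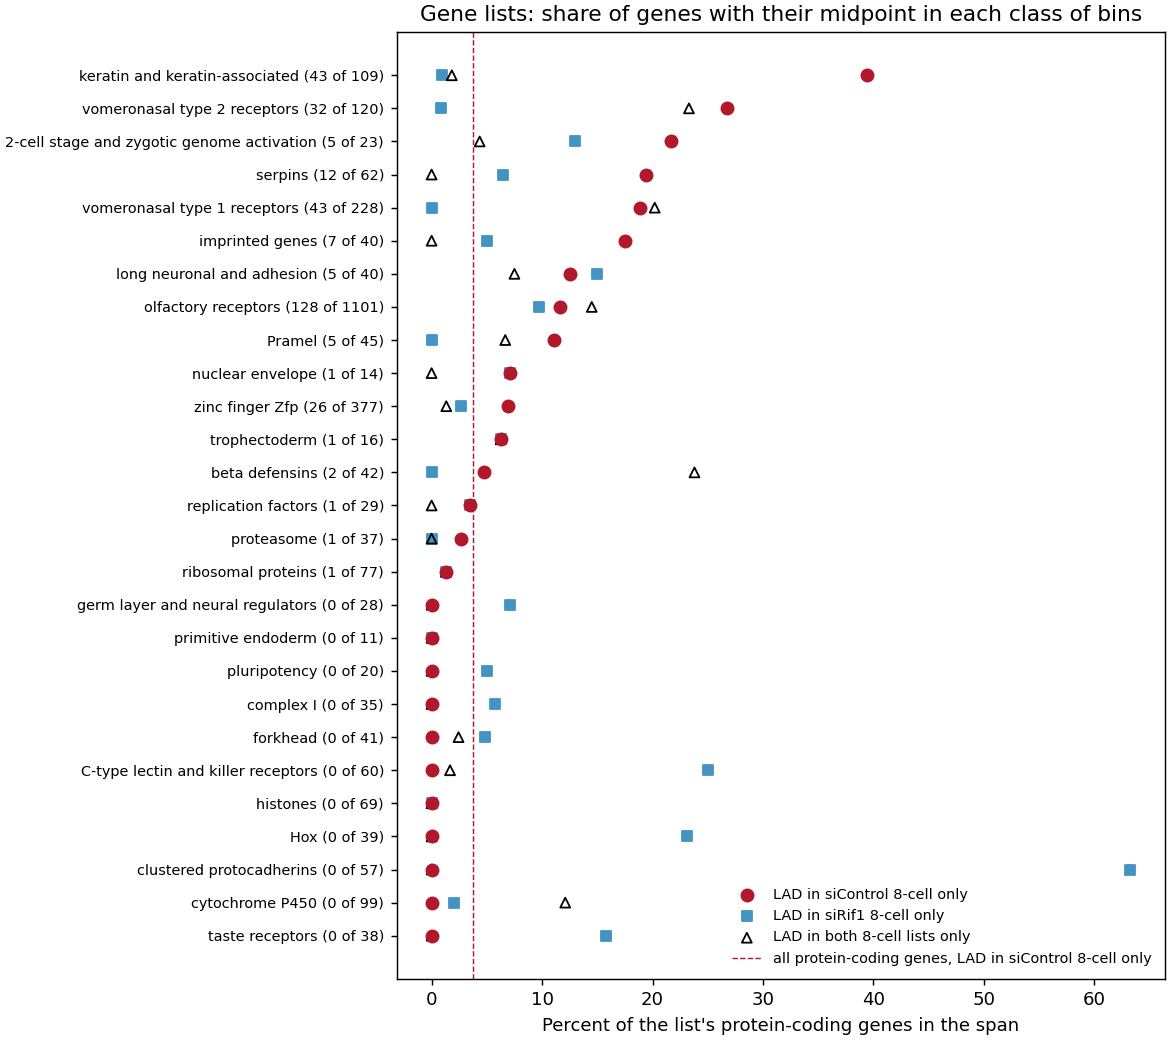
Points give the percent of each list's protein-coding genes with their midpoint in bins LAD in the siControl 8-cell list only (red circles), the siRif1 8-cell list only (blue squares) and both 8-cell lists only (open triangles), for 27 gene lists. The dashed line is the share of all protein-coding genes in members, 3.76%. That share was 3.86% in siRif1 8-cell-only bins and 2.87% in bins LAD in both 8-cell lists only. Genes of a cluster are not independent. Keratin genes are at 39.4% in members, and clustered protocadherin genes at 0% in members and 63.2% in siRif1 8-cell-only bins.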

How the data were processed

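LADs were mapped by DamID in 12 samples, and for each of the 4 groups the authors deposited a list of LAD start and end coordinates (genomic intervals, not a signal or a count) made from its 3 replicates. Every interval falls on a 100-kb grid. Per the submitters' processing notes, the tools included Bowtie2, Trimmomatic, Picard and SAMtools and the build was GRCm38 (mm10); no versions are stated. Which program called LADs, with what threshold, and whether unfused Dam was corrected for is not given in the sources used here. A threshold that depends on depth or replicate spread would change how much is called.

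Each bin of the grid was assigned its state in the 4 lists. Adjoining member bins were joined into stretches, and coordinates are 1-based. Genes were placed by the midpoint of their RefSeq entry (GRCm38.p6), without 333 of 47042 autosomal entries that carry scaffold coordinates. No genome was used here, so the planned GC content and GATC density of bins were replaced by those of the 250 bases upstream of genes in the RefSeq promoter table. That table holds 16123 of the 20144 genes.

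The members and the 27 gene lists were chosen with earlier results of these data known. Genes were named by a rule: up to 4 genes of the 10 longest stretches and of the 3 with most genes, genes of any list with 40 or fewer entries, and genes of at least 500 kb. Loci outside it were picked once their values had been seen, as the text says, and so were the printed sequences, the microRNA, Serpinb and olfactory receptor clusters, and the Zscan4b, Zscan4f, Usp17l, Igf2 to Phlda2 and Tspan32 to Trpm5 neighbours of named genes. Rpl10l and Begain were also named outside the rule. The binning and gene placement were tested on simulated lists. Python 3.11.15, pandas 2.3.3, numpy 2.4.6, scipy 1.17.1, biopython 1.88 and matplotlib 3.10.9 were used.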

Additional observations from a re-analysis of the deposited data

How the results depend on the processing

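Of 36 values recomputed under 6 alternatives, 33 stayed within the range taken as unmoved (a factor of 1.5 for counts, the exact 95% binomial interval for a share, 1 SD over chromosomes for the others). The SD was wide, 4.88 genes per Mb for density and 6.69 for promoter GC percent. These exceed the differences between members and the other LAD classes given above, so being unmoved says little for these values. Density in members ran over 6.68 to 8.15 genes per Mb. The number of member bins ran over 726 to 1031. The share of member bins in stretches adjoining another list's LAD was 79.8%. It was 76.6%, outside the binomial interval, when only LADs of at least 300 kb were kept in every list. That interval treats bins as independent, but all bins of a stretch share this state, so it is too narrow. Whether this share moved is therefore not decided. Leaving out chromosome 7 left 202 of the 312 member genes that belong to any list. Keeping only stretches of at least 300 kb left 143 of the 307 stretches, by construction. Leaving out bins next to a LAD of another list gives no value for the adjoining share. Gene density in members was below that of the rest of the span in all 6 alternatives, by 0.314 (any overlap of a gene) to 1.49 genes per Mb. Of 162 counts for single gene lists, 15 moved by more than 1.5 times or to or from 0, among them Sun1, the nuclear envelope member, which was lost when LADs or stretches under 300 kb were left out.

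No paired analysis was possible because each group's 3 replicates were pooled into a single list, and for the same reason the values without a replicate were not computed. Read depth is unknown, and how near a bin lay to the threshold of a list was not analysed here.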

Other observations

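The loci in this paragraph were chosen after their values were seen. Of 6 H2-M10 genes, which encode class I molecules of the major histocompatibility complex found in the vomeronasal organ, 4 were members. The other 2 were LAD in the siControl lists of both stages, and none of the 6 was LAD in a siRif1 list. In chr19:7673075-8628299, 6 of 8 genes of the organic ion transporter family Slc22a were members, and the other 2, Slc22a6 and Slc22a8, were LAD in both 8-cell lists. The stretch began where the examined span began, so any such genes nearer the centromere were not examined. On chromosome 5, 5 of 18 Pramel genes were members, all in a whole siControl 8-cell LAD of 500 kb (chr5:93900001-94400000) that lay 900 kb from the nearest siRif1 8-cell LAD, 800 kb from the nearest siRif1 4-cell LAD and 1400 kb from the nearest siControl 4-cell LAD. Of 13 Psg genes, which encode pregnancy-specific glycoproteins of the placenta, 2 were members, and 12 were LAD in siControl 8-cell embryos.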
